A study of Mus musculus with 6 samples.

Results

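The anoctamins are a family of membrane proteins, also called TMEM16 proteins, and the transcripts of 10 of them (Ano1 to Ano10) were followed here in the mouse oviduct. The members were taken by symbol, and all 10 were among the 55483 features measured in each library. RNA from whole oviduct was sequenced in 3 libraries labelled Mettl3 d/d and 3 labelled Mettl3 f/f. The females were 6 to 8 weeks old, had been mated with fertile males and were killed on gestational day 3, counting the day of the plug as day 1. Mettl3 encodes the catalytic subunit of the methyltransferase that places N6-methyladenosine (m6A) in messenger RNA. By common usage, f/f stands for a floxed allele and d/d for the same allele after Cre recombination. Neither the Cre driver nor the exons removed were known here.

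Anoctamins share a fold but not a function. ANO1 and ANO2 are chloride channels that open when cytosolic calcium rises, while ANO6 and several of its relatives are scramblases, which let phospholipids cross between the leaflets of a membrane. In the mouse oviduct, Ano1 is best known as the channel of the interstitial cells of Cajal, the pacemaker cells that drive slow waves in the smooth muscle, and it is also present in secretory epithelia of many organs. Ano2 is best known from the cilia of olfactory neurons and from photoreceptor terminals.

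Both chloride channel genes fell in the libraries labelled d/d, and none of the other 6 anoctamins that could be tested passed the test. Ano1 was 2.19-fold lower, and Ano2 was listed at 0 in 2 of the 3 libraries. For Ano4, Ano5, Ano6, Ano8, Ano9 and Ano10 the 95% interval of the change included 0. The level of Mettl3 itself did not check the labels: it was 19.8, 20.3 and 24.5 FPKM in the libraries labelled d/d, against 11.8, 12.1 and 13.2 FPKM in those labelled f/f, with no overlap. That is a log2 change of 0.75 (SE 0.12, limma adjusted p = 0.0145), which missed the threshold without f/f replicate 2 (limma adjusted p = 0.0688). Gene totals do not tell whether an exon is missing, so every direction given here rests on the labels.

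The start regions of Ano1 and Ano2, the members that fell, and of Ano6, an abundant member that did not pass the test, are shown because they differ in base composition. Each is the 250 bases before a RefSeq transcription start (GRCm38.p6), written 5′ to 3′ on the gene's strand, with capitals marking each GC box (GGGCGG on either strand).

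Ano1, chr7:144738574-144738823, minus strand: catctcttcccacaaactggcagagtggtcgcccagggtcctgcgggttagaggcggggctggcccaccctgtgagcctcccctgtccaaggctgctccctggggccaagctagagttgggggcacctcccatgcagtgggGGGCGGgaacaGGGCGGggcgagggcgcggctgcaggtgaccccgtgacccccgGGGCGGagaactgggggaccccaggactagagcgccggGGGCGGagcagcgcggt
Ano2, chr6:125690169-125690418, plus strand: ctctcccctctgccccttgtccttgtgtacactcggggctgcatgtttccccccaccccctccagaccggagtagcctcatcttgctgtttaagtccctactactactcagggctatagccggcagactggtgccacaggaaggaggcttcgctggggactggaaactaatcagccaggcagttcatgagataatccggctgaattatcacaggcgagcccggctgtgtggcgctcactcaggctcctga
Ano6, chr15:95790593-95790842, plus strand: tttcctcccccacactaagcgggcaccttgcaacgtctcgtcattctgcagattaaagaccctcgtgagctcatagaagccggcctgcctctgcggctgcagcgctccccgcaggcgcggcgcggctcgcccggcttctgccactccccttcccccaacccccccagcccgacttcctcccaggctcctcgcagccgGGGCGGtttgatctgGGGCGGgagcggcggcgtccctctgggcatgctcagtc

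The Ano1 window held 4 GC boxes and 16 CG dinucleotides at 72.0% G and C. The Ano2 window held 0 GC boxes and 8 CG dinucleotides at 58.0%, and the Ano6 window 2 GC boxes and 22 CG dinucleotides at 68.4%. Over 32851 RefSeq windows of the same length, 32.7% held a GC box, and the medians were 6 CG dinucleotides and 52.4% G and C. The genes that fell thus have start regions of unlike composition, and so do members that did not pass the test. The Ano10 window held 5 GC boxes at 65.2% G and C, and the Ano4 window 0 at 53.2%. The half-site AGAACA, which steroid receptors of the progesterone and glucocorticoid class can bind, was searched on both strands as well. It was found in 0 of the 3 windows shown and in 16.1% of all windows, and TATAAA in 0 of the 3 and in 12.4%. Start windows were matched for 8 of the 10 members. The RefSeq start of Ano1 used here lies 13401 bases inside the gene as GENCODE M21 draws it, so Ano1 has at least 1 other annotated start. That of Ano4 lies 86972 bases inside. For Ano2, Ano6 and Ano10 both annotations begin at the same base.

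Because Mettl3 acts on RNA, the 5 letters GGACT, the core of a common m6A context, were counted on the sense strand of each member's longest coding transcript in GENCODE M21. Ano1 held 8 in 4585 nt, or 1.75 per kilobase, and Ano2 held 3 in 3925 nt, or 0.764 per kilobase. Ano4, which did not pass the test, held 7 in 4018 nt, or 1.74 per kilobase, nearly the density of Ano1. The median over 19349 mouse genes with a longest coding transcript of at least 1000 nt was 1.01 per kilobase, with quartiles at 0.615 and 1.498. The other 7 members lay between 0.514 per kilobase for Ano5 and 1.33 for Ano9. Ano1 and Ano2 therefore lie on opposite sides of the median. These are letter matches on 1 transcript per gene and not measured m6A sites, and their part in the changes was not tested.

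Levels are given in FPKM, a unit that divides a gene's fragments by transcript length and by library size, so that genes can be compared with each other. Library totals ran from 629800 to 751600 FPKM in the libraries labelled d/d and from 588800 to 648400 in those labelled f/f. The steps between the lowest values implied 16600000 to 17200000 fragments per library labelled d/d and 17100000 to 17800000 per library labelled f/f. Mitochondrial genes held 6.50% to 9.70% of FPKM in libraries labelled d/d and 3.61% to 5.70% in those labelled f/f. When libraries were rescaled to protein-coding nuclear genes, the log2 change was -1.15 for Ano1 and -3.78 for Ano2 (limma adjusted p = 0.0152 and 0.0155). Any other part of the mitochondrial share in the results was not tested. Ovgp1, the gene of oviductal glycoprotein and the defining marker of the labelled tissue, was at 2651 to 5059 FPKM in libraries labelled d/d and 4264 to 5690 in those labelled f/f. Replicate 1 of f/f stood apart from the other f/f libraries in regional and muscle markers, with Hoxa10 at 3.48 FPKM against 26.5 and 25.1, and Myh11 at 232 FPKM against 580 and 625. It also stood apart in summed multiciliated markers, at 412 FPKM against 233 and 191, and in adipose markers, at 22.0 FPKM against 0.942 and 4.29. Among d/d libraries, replicate 1 was low in the multiciliated sum, at 56.2 FPKM against 271 and 159. The called anoctamins, Ano5 and the called related genes are given with and without f/f replicate 1.

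The 10 anoctamins ranged from abundant to barely detected. In the libraries labelled f/f, Ano1 was the most abundant, at 82.4 ± 11.8 FPKM, followed by Ano6 at 48.4 ± 1.33 and Ano4 at 39.9 ± 2.07 (SD, n = 3). The ranges of these 3 genes over the f/f libraries did not overlap. Ano10 (18.9 ± 1.24) and Ano2 (16.8 ± 11.6) came next and their ranges overlapped. The range of Ano2 also overlapped those of Ano8 (5.63 ± 0.175) and Ano5 (5.51 ± 3.08), which overlapped each other. Ano9 was at 0.886 ± 0.250 FPKM, Ano7 at 0.396 ± 0.356 and Ano3 at 0.158 ± 0.0294 (SD, n = 3). The range of Ano7 overlapped those of both Ano9 and Ano3.

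In the libraries labelled d/d the order at the top was different. Ano6 led at 50.1 ± 5.12 FPKM, and Ano4 (37.9 ± 3.32) and Ano1 (37.6 ± 6.57) followed with overlapping ranges (SD, n = 3). Ano10 was at 22.0 ± 2.08 FPKM, and Ano5 (5.22 ± 0.933) and Ano8 (5.14 ± 0.271) overlapped. Ano9 was at 1.34 ± 0.838, Ano3 at 0.408 ± 0.187 and Ano7 at 0.307 ± 0.164 FPKM, with overlap between each pair of these 3 genes, and Ano2 was below all of them (SD, n = 3).

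**Figure D1:**
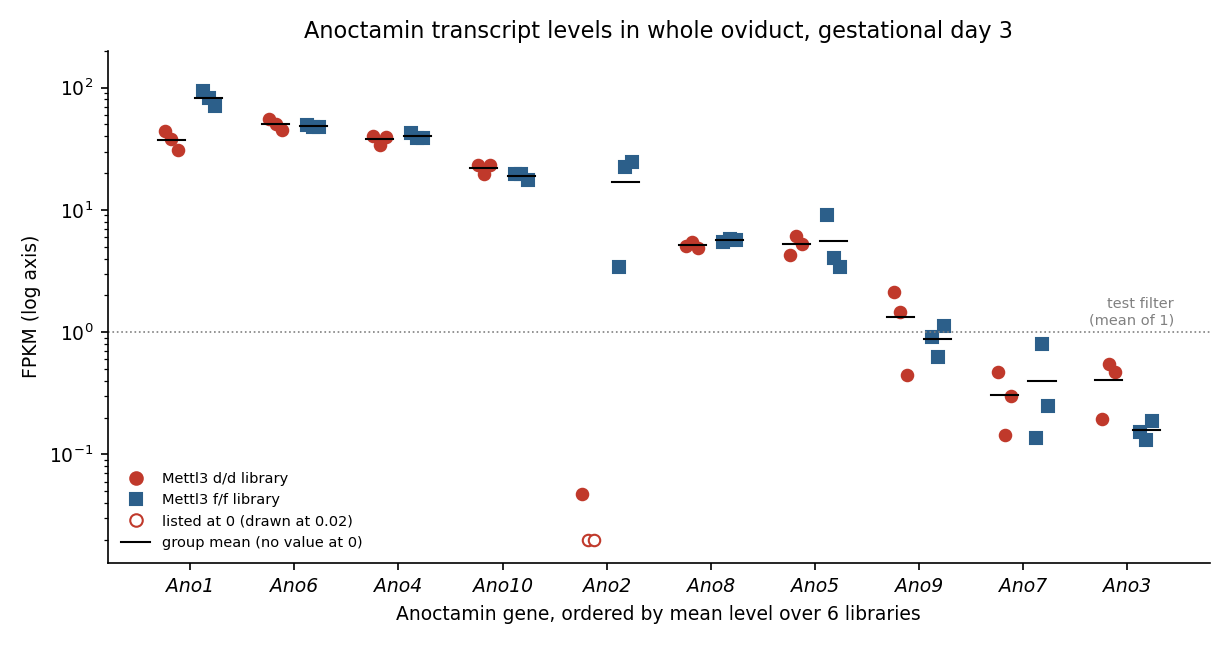
FPKM (log axis) of the 10 anoctamin genes in each library, circles for Mettl3 d/d and squares for Mettl3 f/f, with bars at group means; open circles are libraries where the gene was listed at 0. Ano1 lies between 30.8 and 43.9 FPKM in d/d and between 70.6 and 94.2 in f/f, and Ano2 is the one gene with d/d libraries at the bottom of the plot.

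Ano1 (ENSMUSG00000031075; chromosome 7, 144588549 to 144751974, minus strand, GRCm38) encodes the calcium-activated chloride channel of pacemaker and secretory cells. It was at 43.9, 38.1 and 30.8 FPKM in libraries 1 to 3 labelled d/d, against 94.2, 82.3 and 70.6 FPKM in libraries 1 to 3 labelled f/f. The highest value labelled d/d was well below the lowest labelled f/f. Groups did not overlap in this direction for 17.4% of the features tested. The log2 change of FPKM + 1 was -1.12 (SE 0.17, 95% interval from -1.51 to -0.72, limma adjusted p = 0.0126). Of the 768 features that fell, 294 (38.3%, Ano1 included) had a change at least as far below 0. Without f/f replicate 1 it was -1.02 (limma adjusted p = 0.0195). Without f/f replicate 2 the change was nearly the same, -1.11, but missed the threshold (limma adjusted p = 0.0561).

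Ano2 (ENSMUSG00000038115; chromosome 6, 125690419 to 126040126, plus strand, GRCm38), the channel gene known from sensory neurons, showed the larger change. Of the libraries labelled d/d, replicate 1 had 0.0474 FPKM and the other two had a listed value of 0, against 3.42, 22.5 and 24.5 FPKM in libraries 1 to 3 labelled f/f. On its 1 coding transcript of 3925 nt, the value in d/d replicate 1 came to about 3 fragments, against about 223, 1468 and 1539 fragments in the f/f libraries. With a count of 0, up to 3 fragments remain possible, which is 0.0492 FPKM in d/d replicate 2 and 0.0484 in d/d replicate 3. This limit covers counting error only, and a value listed at 0 in these tables can also be a failed estimate, so no fold is given.

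The log2 change of FPKM + 1 for Ano2 was -3.77 (SE 0.65, 95% interval from -5.31 to -2.23, limma adjusted p = 0.0179). Its size is set by the pseudocount, being -6.78 with 0.1 in place of 1 (limma adjusted p = 0.00805), and Ano2 passed the filter through its f/f values alone. Replicate 1 of f/f set much of the error: without it the change was -4.59 (limma adjusted p = 0.00065). Without any other single library the change kept its direction and missed the threshold, with a limma adjusted p of 0.0704 or 0.0612 when replicate 2 or 3 of f/f was left out. When replicate 1, 2 or 3 of d/d was left out it was 0.0514, 0.0623 or 0.0634. Without both replicates numbered 1 it was -4.61 (limma adjusted p = 0.0016).

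**Figure D2:**
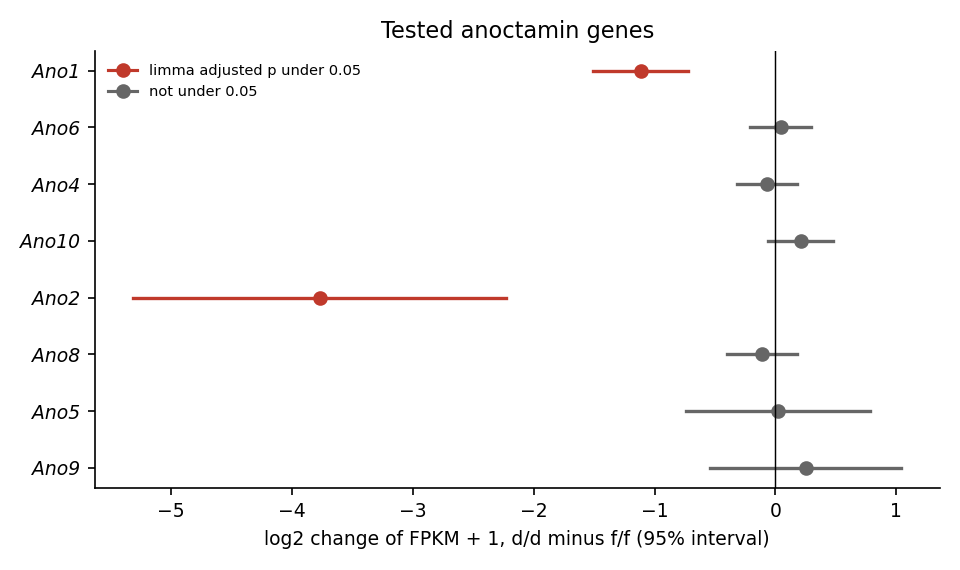
Log2 change of FPKM + 1, d/d minus f/f, with 95% intervals from limma for the 8 anoctamin genes tested; red marks an adjusted p under 0.05. Ano1 (-1.12) and Ano2 (-3.77) lie left of 0, and the intervals of the other 6 include 0.

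The scramblases and other abundant relatives were close to level between the groups. Ano6, the scramblase that exposes phosphatidylserine on platelets, was at 54.8, 50.7 and 44.7 FPKM in d/d libraries, against 49.8, 48.0 and 47.3 FPKM in f/f libraries, and the groups overlapped. Its log2 change was 0.04 with a 95% interval from -0.21 to 0.29 (limma adjusted p = 0.818). Ano4, a scramblase described mostly in brain, was at 40.5, 34.2 and 39.1 FPKM in d/d libraries, against 42.2, 38.5 and 38.9 FPKM in f/f libraries. Its log2 change was -0.07 (95% interval from -0.32 to 0.17, limma adjusted p = 0.678). Intervals of this width leave out a change as large as that of Ano1 for either gene.

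Ano10, a scramblase gene mutated in a recessive human cerebellar ataxia, was at 23.2, 19.6 and 23.2 FPKM in d/d libraries, against 19.5, 19.7 and 17.5 FPKM in f/f libraries. Its log2 change was 0.21 (95% interval from -0.06 to 0.48, limma adjusted p = 0.268), and d/d replicate 2 lay within the f/f range. Ano8, which tethers the endoplasmic reticulum to the plasma membrane, was at 5.09, 5.43 and 4.89 FPKM in d/d libraries, against 5.43, 5.74 and 5.72 FPKM in f/f libraries. The highest d/d value lay just above the lowest f/f value, and the log2 change was -0.11 (95% interval from -0.40 to 0.18, limma adjusted p = 0.585). Exons of Ano8 share 80 nt with Dda1 on the opposite strand, so reads of the 2 genes in that stretch cannot be told apart without strand. Dda1 was at 25.2 to 30.5 FPKM in d/d libraries and 28.4 to 31.6 FPKM in f/f libraries. The same limit holds for Ano6, which shares 122 nt with Gm49172 and 214 nt with A130051J06Rik. It holds too for Ano3, which shares 61 nt with Muc15.

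Ano5, a gene of muscle membrane repair mutated in human limb-girdle muscular dystrophy, stood high in 1 f/f library. It was at 4.27, 6.13 and 5.24 FPKM in d/d libraries, against 9.04, 4.07 and 3.43 FPKM in f/f libraries, where replicate 1 was the highest. The log2 change was 0.02 (95% interval from -0.74 to 0.78, limma adjusted p = 0.976), and 0.38 without f/f replicate 1 (limma adjusted p = 0.248). The 3 tested skeletal muscle genes differed in f/f replicate 1, where Ano5 was highest. Tnnt3 was highest there among the f/f libraries, with 5.16, 2.81 and 2.19 FPKM in d/d libraries, against 3.82, 2.92 and 1.92 FPKM in f/f libraries. Acta1 and Mylpf were lowest there, at 0.452 and 1.00 FPKM, and their part, like that of Tnnt3, was not tested.

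The last 3 members were low. Ano9 was at 2.11, 1.46 and 0.450 FPKM in d/d libraries, against 0.917, 0.622 and 1.12 FPKM in f/f libraries, with a log2 change of 0.25 (95% interval from -0.54 to 1.04, limma adjusted p = 0.653). Ano7, a gene best known from prostate, and Ano3, known from sensory neurons, had means under 1 FPKM over the 6 libraries and were not tested. Ano7 was at 0.474, 0.145 and 0.302 FPKM in d/d libraries, against 0.135, 0.801 and 0.250 FPKM in f/f libraries. Ano3 was at 0.197, 0.552 and 0.474 FPKM in d/d libraries, against 0.154, 0.130 and 0.189 FPKM in f/f libraries, so its groups did not overlap, as was the case in this direction for 18.1% of the features tested, though d/d replicate 1 exceeded f/f replicate 3 by little. When every feature with a value above 0 was tested, Ano3 had a log2 change of 0.27 (limma adjusted p = 0.228).

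In all, 8 of the 10 members passed the filter of a mean of at least 1 FPKM, and 2 fell and 0 rose. Over all 15438 features tested, 11.0% passed the threshold, 4.97% lower and 6.04% higher, so 2 of 8 is a small count to set against that background. The median log2 change of the 8 tested members was -0.03, beside -0.01 for all features. Leaving out single libraries gave 0 members past the threshold when f/f replicate 2 was dropped. It gave 2 when f/f replicate 1 was dropped and 1, Ano1, when any other was.

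As a family total, the 10 genes summed to 174.6, 156.3 and 149.1 FPKM in d/d libraries, against 224.9, 222.4 and 209.4 FPKM in f/f libraries. The 8 genes other than Ano1 and Ano2 summed to 122 ± 7.18 FPKM in d/d and 120 ± 6.74 FPKM in f/f (SD, n = 3 each). The chloride channel pair made up 23.4% ± 2.42 of anoctamin FPKM in d/d and 45.3% ± 1.86 in f/f (SD, n = 3 each). The pair is also the set of members that passed the test, so this split restates those calls and is no further result. Ano1 and Ano2 did not share their pattern within f/f: replicate 1 held the highest Ano1 value and the lowest Ano2 value, and their summed share differed little between f/f libraries.

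**Figure D3:**
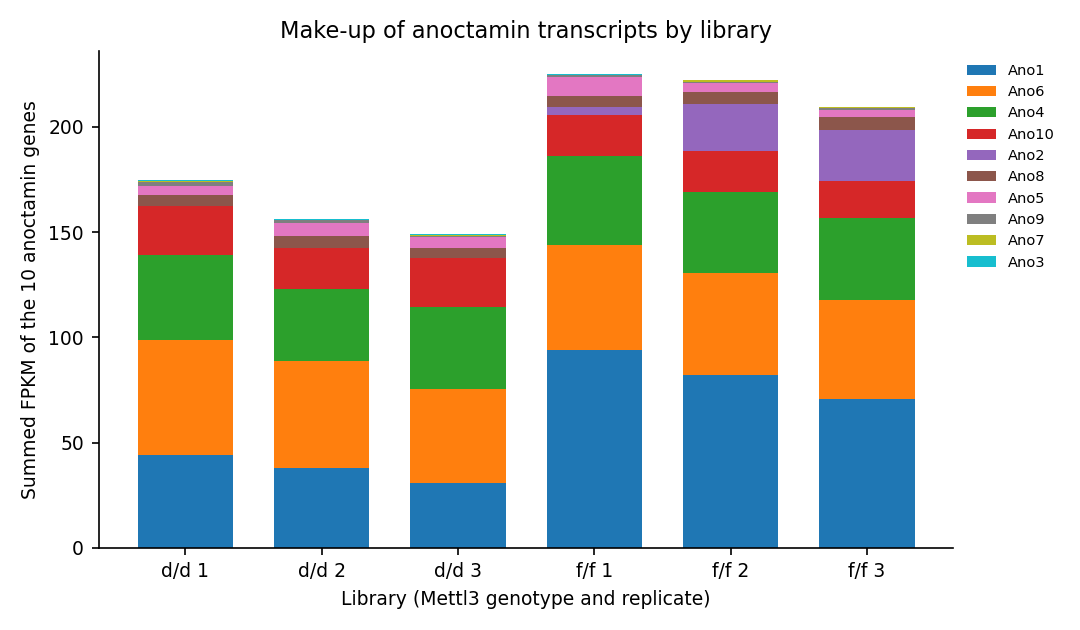
Summed FPKM of the 10 anoctamin genes in each library, split by gene. The 3 d/d bars reach 149.1 to 174.6 and the 3 f/f bars 209.4 to 224.9, and the Ano1 (lowest, blue) and Ano2 (purple) segments differ most between the groups.

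In whole tissue, fewer cells of a type and less RNA per cell cannot be told apart, so markers of the cells that could carry Ano1 were read beside it. The list for interstitial cells of Cajal, which includes Ano1, summed to 90.9 to 127 FPKM in d/d libraries and 107 to 177 FPKM in f/f libraries. Ano1 itself gave 30.8 to 43.9 FPKM of the d/d sums and 70.6 to 94.2 FPKM of the f/f sums. These sums are therefore not separate from its own fall. Of the other 4 markers on the list, 0 passed the test. Kit, the receptor that defines these cells and also mast cells, was at 8.76, 18.5 and 11.1 FPKM in d/d libraries, against 30.6, 9.86 and 9.0 FPKM in f/f libraries. Its groups overlapped (limma adjusted p = 0.824). Etv1, a transcription factor of the same cells, was at 3.34, 3.08 and 3.29 FPKM in d/d libraries, against 4.40, 3.89 and 2.89 FPKM in f/f libraries (limma adjusted p = 0.624). The log2 changes were -0.19 for Kit and -0.14 for Etv1. The remaining markers of the list went the other way, Gja1 by 0.61 and Prkcq by 0.11 (limma adjusted p = 0.256 and 0.774). Gja1 was at 33.2, 66.4 and 55.2 FPKM in d/d libraries, against 46.7, 30.1 and 23.6 FPKM in f/f libraries. The mast cell list summed to 0.428 to 3.55 FPKM in d/d libraries and 4.24 to 6.07 FPKM in f/f libraries, with Cma1 as its 1 tested gene.

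Among 8 smooth muscle genes, 0 rose and 1 fell, the intermediate filament gene Des (limma adjusted p = 0.0385). Their sums ran from 2710 to 4426 FPKM in d/d libraries and from 2175 to 5265 FPKM in f/f libraries. The lowest sum was in f/f replicate 1, where Ano1 was highest. Of 5 general epithelial markers Epcam and Cdh1 rose and Krt18 fell, and their sums were 641 to 735 FPKM in d/d libraries and 802 to 932 FPKM in f/f libraries. Krt19 and Krt8, the rest of that list, were lower in d/d and missed the threshold (log2 changes -0.83 and -0.33, limma adjusted p = 0.0557 and 0.181). Of 5 secretory markers, Ltf, Lcn2 and Muc1 rose and 0 fell, and the sums were 5444 to 7812 FPKM in d/d and 4941 to 6118 FPKM in f/f. Of 7 multiciliated markers 0 passed, with sums of 56.2 to 271 FPKM in d/d and 191 to 412 FPKM in f/f. Of these markers 0 had a log2 change above 0, and their median was -0.90, beside -0.01 for all features. The spread was wide, with the lowest d/d sum and the highest f/f sum both in replicate 1. The part of any of these cell types in the fall of Ano1 was not tested.

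Other compartments moved as well. All 7 macrophage and myeloid markers rose, with sums of 914 to 1181 FPKM in d/d libraries and 295 to 391 FPKM in f/f libraries. In stroma, Lum rose and Pdgfra fell among 5 genes, and sums were 1914 to 2756 FPKM in d/d and 2133 to 2366 FPKM in f/f. Of 4 endothelial markers 0 passed (94.6 to 126 FPKM in d/d, 94.2 to 110 FPKM in f/f), and of 4 tested lymphocyte markers Cd79b rose (12.6 to 19.6 FPKM in d/d, 7.35 to 9.86 FPKM in f/f). Neuron and glia, skeletal muscle, adipose and ovary lists had 0 genes past the threshold among 4, 3, 2 and 4 tested. Their sums were 13.4 to 17.6, 3.53 to 7.70, 0.292 to 3.30 and 36.9 to 41.7 FPKM in d/d libraries, against 22.6 to 26.2, 5.63 to 12.6, 0.942 to 22.0 and 27.7 to 56.2 FPKM in f/f libraries.

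Among f/f libraries, replicate 1 was low both in Ano2 and in a regional marker. Hoxa10, expressed toward the uterus along the tract, was at 4.24, 9.47 and 12.4 FPKM in d/d libraries, against 3.48, 26.5 and 25.1 FPKM in f/f libraries. Its groups overlapped (limma adjusted p = 0.556). All 3 d/d libraries had more Hoxa10 than f/f replicate 1. Ano2 was at 3.42 FPKM in f/f replicate 1 and at most 0.0474 FPKM in d/d libraries. The part of the region sampled in the values of Ano2 was not tested. Hoxa11, of the same region, was at 0 to 0.847 FPKM in d/d libraries and 0.194 to 1.05 FPKM in f/f libraries, and Hoxa13 was listed at 0 in all 6 libraries. The 3 genes summed to 4.24 to 13.3 FPKM in d/d libraries and 3.68 to 27.6 FPKM in f/f libraries. The 7 neuronal and glial genes, whose sums did not overlap between the groups, moved in different ways. Uchl1 (2.51 to 5.67 FPKM in d/d, 4.25 to 13.2 in f/f) and Prph (0.475 to 4.68 FPKM in d/d, 0.771 to 3.48 in f/f) overlapped. Tubb3 was at 0.830 to 1.61 FPKM in d/d and 0.105 to 0.315 in f/f, and the glial gene Sox10 at 0.301 to 0.364 FPKM in d/d and 0.504 to 0.833 in f/f. The part of these cells in the values of Ano2 was not tested.

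**Figure D4:**
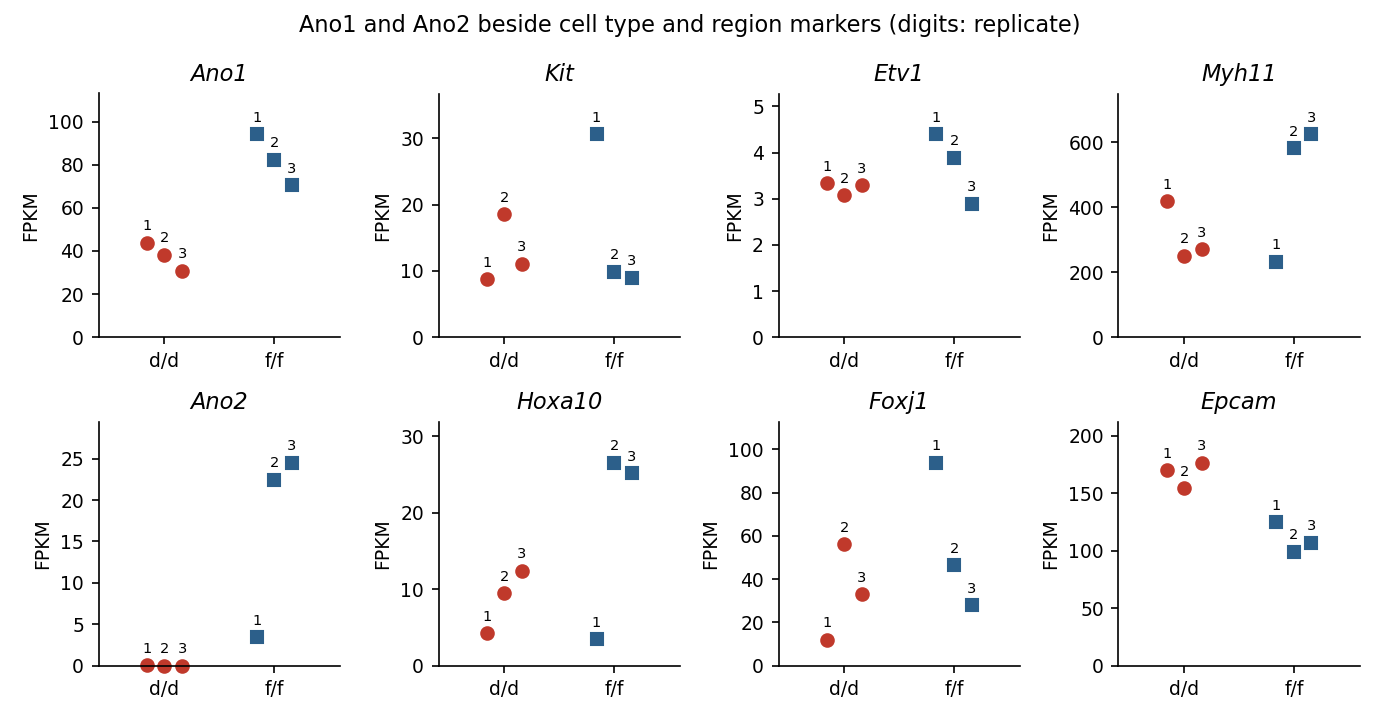
FPKM of Ano1 and Ano2 beside the markers Kit, Etv1, Myh11, Hoxa10, Foxj1 and Epcam, with d/d circles left of f/f squares and the replicate number at each point. Ano1 separates the groups, as 17.4% of the features tested do in this direction, while Kit, Etv1 and Myh11 overlap. The smooth muscle gene Des, not drawn, is lower in d/d and separates the groups too. Replicate 1 of f/f is low for both Ano2 (3.42) and Hoxa10 (3.48).

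The genes whose levels over the 6 libraries most resembled those of each channel were picked by Pearson's r of log2(FPKM + 1), as a description in which all points share library and group. For Ano1 these were Dhdh (r = 0.995), a dihydrodiol dehydrogenase gene, Snx33 (0.993), a sorting nexin gene, Cramp1l (0.992) and Emp2 (0.991), an epithelial membrane protein gene. Emp2 was at 31.7, 28.8 and 26.0 FPKM in d/d libraries, against 65.7, 61.4 and 56.2 FPKM in f/f libraries. It thus has the same order of libraries within each group as Ano1. For Ano2 they were Acot7 (r close to 1.00), an acyl-CoA thioesterase gene, Cyp2j11 (0.998), a cytochrome P450 gene, Atf7ip2 (0.998) and Acsl4 (0.998), an acyl-CoA synthetase gene that prefers arachidonate. Acot7 was at 17.6, 16.3 and 15.8 FPKM in d/d libraries, against 66.4, 297 and 294 FPKM in f/f libraries, so it too was low in f/f replicate 1.

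Genes of the wider anion, lipid and calcium machinery changed about as often as genes in general. Over 6 lists of related genes, 10 of 90 tested genes passed the threshold (11.1%), 6 lower and 4 higher, beside 11.0% of all features. Leaving out replicate 1, 2 or 3 of d/d gave 4, 2 or 2 calls, and leaving out replicate 1, 2 or 3 of f/f gave 17, 1 or 0. All 10 genes kept their direction and their call without f/f replicate 1, and all 10 missed the threshold without f/f replicate 3. Over the 6 fits with 1 library left out, Clca3a1 kept its call in 4, Atp2a3 in 3 and each of the other 8 genes in 1 or 2.

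Among 22 other chloride channels and channel regulators tested, 1 rose and 1 fell, with a median log2 change of 0.02. Clca3a1, a secreted regulator of the calcium-activated chloride current, rose to 7.86, 4.72 and 4.72 FPKM in d/d libraries, against 2.07, 1.72 and 1.63 FPKM in f/f libraries (3.20-fold, limma adjusted p = 0.0193). Clic3, of the chloride intracellular channel family, was at 0.767, 2.79 and 0.992 FPKM in d/d libraries, against 5.82, 17.5 and 14.9 FPKM in f/f libraries (8.40-fold lower, limma adjusted p = 0.0222, and 0.00955 without f/f replicate 1). Like Ano2, Clic3 was lowest in replicate 1 among the f/f libraries. Cftr, the cAMP-activated chloride channel of epithelia, was at 12.0, 16.7 and 16.4 FPKM in d/d libraries, against 21.9, 7.61 and 8.37 FPKM in f/f libraries, with no call (limma adjusted p = 0.544). The volume-regulated channel subunit Lrrc8a was at 14.3 to 18.5 FPKM in d/d libraries and 12.5 to 14.1 FPKM in f/f libraries (limma adjusted p = 0.227).

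Of 9 transporters that load or exchange chloride, 0 passed in either direction and the median log2 change was -0.34. The 2 most abundant were Slc12a2, the sodium-potassium-chloride cotransporter that brings chloride into secretory cells, and Slc4a2, a chloride-bicarbonate exchanger. Slc12a2 was at 44.2, 54.4 and 47.2 FPKM in d/d libraries, against 39.8, 39.2 and 40.9 FPKM in f/f libraries (limma adjusted p = 0.147). Slc4a2 was at 28.1, 29.1 and 28.5 FPKM in d/d libraries, against 34.7, 40.4 and 35.5 FPKM in f/f libraries (limma adjusted p = 0.0643). The groups of each gene stood apart without overlap, a state shared by 35.6% of all features.

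Lipid transporters outside the anoctamins showed few calls. Of 12 genes of other scramblase families and their partner proteins 0 passed, with a median log2 change of -0.05. The most abundant, Bsg and Nptn, encode chaperones of the scramblase XKR8 and were at 385 to 423 and 155 to 214 FPKM in d/d libraries, against 368 to 400 and 134 to 179 FPKM in f/f libraries. Of 14 flippase genes, whose proteins use ATP to move phospholipids in 1 direction, 1 fell, with a median of 0.05. It was Atp8a2, at 0.768, 0.0490 and 0.0795 FPKM in d/d libraries, against 2.07, 6.26 and 2.11 FPKM in f/f libraries (limma adjusted p = 0.0461). It passed the filter through its f/f values alone, and it missed the threshold with no filter (limma adjusted p = 0.0805). Of 7 genes in the related TMC and OSCA/TMEM63 families, 1 fell, with a median of -0.02. Tmc5 was at 29.3, 17.8 and 26.8 FPKM in d/d libraries, against 41.6, 112 and 106 FPKM in f/f libraries (3.52-fold lower, limma adjusted p = 0.0430).

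The calcium machinery that can open these channels had 3 genes higher and 3 lower among 26 tested, with a median log2 change of -0.14. Stim1, the calcium sensor of the endoplasmic reticulum, fell to 27.3, 22.0 and 25.3 FPKM in d/d libraries, against 38.6, 51.1 and 44.1 FPKM in f/f libraries (1.80-fold lower, limma adjusted p = 0.0170). Its relative Stim2 rose 1.61-fold (limma adjusted p = 0.0475). Orai1, the pore that STIM proteins open in the plasma membrane, rose to 25.1, 21.2 and 21.4 FPKM in d/d libraries, against 10.2, 14.4 and 12.5 FPKM in f/f libraries (limma adjusted p = 0.0198).

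The other calls on that list were of both directions too. Plcb1 and Plcg2 encode phospholipases that make the messenger which releases stored calcium. Plcb1 was at 6.87 ± 0.430 FPKM in d/d and 12.2 ± 1.16 FPKM in f/f, and Plcg2 at 9.75 ± 1.66 FPKM in d/d and 4.83 ± 0.390 FPKM in f/f (SD, n = 3 each; limma adjusted p = 0.0155 and 0.0194). Atp2a3, a calcium pump of the endoplasmic reticulum, was at 11.3, 10.9 and 7.45 FPKM in d/d libraries, against 41.7, 21.9 and 27.4 FPKM in f/f libraries (3.07-fold lower, limma adjusted p = 0.0178). The receptors that release the store, Itpr1, Itpr2 and Itpr3, had log2 changes of -0.01, 0.01 and -0.0017 with limma adjusted p of 0.970, 0.984 and 0.997.

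**Figure D5:**
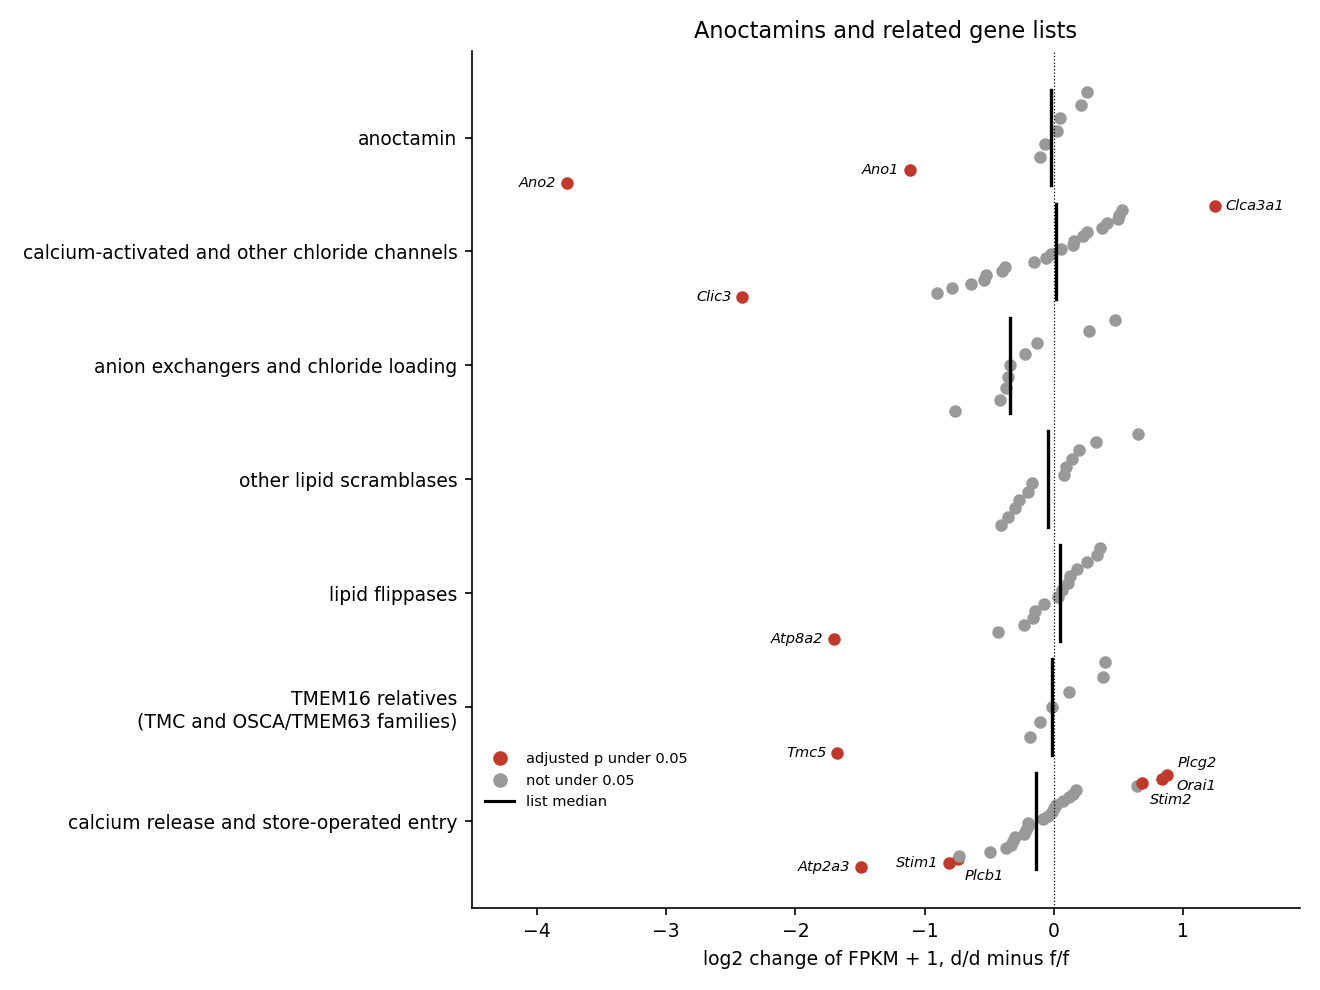
Log2 change of FPKM + 1, d/d minus f/f, of each tested gene in the anoctamin family and 6 related lists, red and named where the limma adjusted p was under 0.05, with a line at each list median. Ano2 (-3.77) lies farthest left, the medians lie between -0.34 and 0.05, and calls fall on both sides of 0 in the chloride channel and calcium lists.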

How the data were processed

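TRIzol was used for total RNA and a TruSeq RNA kit for the libraries, per the protocols in the labels. The authors deposited 1 table per library, read here as FPKM, 1 value per Ensembl gene. The unit is inferred from decimals with unequal totals and from Cufflinks 2.2.1, named with HISAT2 2.2.1, mm9 and mm10 per the submitters' processing notes. For annotation and strand, the setting is not given in the sources used here. Coordinates come from GENCODE M21 (GRCm38), which held 99.4% of the identifiers.

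For 114 symbols with several rows, values were added up. All features averaging at least 1 FPKM entered a limma 3.58.1 fit of log2(FPKM + 1) (R 4.3.3, eBayes with a variance trend, genotype only, two-sided, Benjamini-Hochberg over all 15438 features, threshold 0.05). Folds are ratios of group means of FPKM, and log2 changes understate those of low genes. The depth was read from single-transcript genes over 1500 nt and under 0.1 FPKM, whose lowest step (length less 255 nt) was taken as 1 fragment; 91.6% to 95.2% of values near the step lay within 1% of it. The values were not turned back into counts. The labels do not say that replicates were separate animals, so p-values may measure technical spread. The 0 identical pairs of libraries left 3 per group.

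The members and lists were chosen with earlier results of these data known. Genes named were the 10 members, Mettl3, the called genes of each related list or else its 2 most abundant, and the 4 genes most like each called member. The genes named from marker lists are only in part the 2 most abundant of each list. Kit, Etv1, Prkcq, Cma1, Des, Myh11, Epcam, Cdh1, Krt8, Muc1, Lcn2, Pdgfra, Lum, Cd79b, Hoxa11, Hoxa13, Prph, Tubb3, Sox10, Acta1, Mylpf, Cftr, Lrrc8a, Dda1, Gm49172, A130051J06Rik, Muc15 and the Itpr genes were chosen after their values were seen. Alternatives tried were a pseudocount of 0.1, no filter, a filter of 0.1, TMM, quantile and protein-coding scaling, the replicate number as a block, no variance trend and fewer libraries.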

Additional observations from a re-analysis of the deposited data

How the results depend on the processing

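Ano1 kept its call in 14 of 15 alternatives and Ano2 in 9 of 15, and both kept their direction in all 15, with log2 changes from -1.23 to -0.98 for Ano1 and from -6.78 to -3.33 for Ano2. With no filter, 508 features were lower and 599 higher in place of 768 and 933, and 6 genes of the related lists passed in place of 10. With single libraries left out, features lower ran from 124 to 853, features higher from 184 to 942, anoctamins past the threshold from 0 to 2 and genes of the related lists from 0 to 17; these fits have fewer samples. Same-numbered libraries did not deviate together (correlations of -0.22, -0.058 and 0.0027). With 3 libraries per group, this cannot tell whether the numbers pair libraries. The replicate number as a block gave 102 features lower, 174 higher, 1 anoctamin and 1 related gene, and Ano2 and Mettl3 then missed the threshold (limma adjusted p = 0.0575 and 0.0559) while Ano1 kept it (0.0322). Uncalled Ano5 changed sign when rescaled to protein-coding nuclear genes (-0.0093) and ran from -0.21 to 0.38 with single libraries left out, being -0.086 without d/d replicate 2 and -0.11 and -0.21 when f/f lost its replicate 2 or 3. Uncalled Ano6 was -0.023 without d/d replicate 1, ran from -0.023 to 0.12, and was -0.0019 without both replicates numbered 1, where Ano5 was 0.49. The cause of these shifts was not tested. Depth limits the low members most: Ano3 and Ano7 were tested with no filter and with a filter of 0.1, where neither passed the threshold, and Ano9 was tested in 13 of the 15 alternatives.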
